A study of Homo sapiens with 6 samples.

Results

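RNA polymerase I is the enzyme that transcribes the ribosomal RNA genes, and the 10 genes described here encode subunits of the enzyme (POLR1A, POLR1B, POLR1C, POLR1D, POLR1E, POLR1F, POLR1G and POLR1H) and 2 factors that start its transcription (UBTF and RRN3). They were chosen by gene symbol and function, with earlier results of these data known though by no threshold on a measured value, and are 10 of the 25420 genes in the deposited tables. MOLM-13 cells, an established human acute myeloid leukaemia line of monocytic type, were treated with 10 µM C646, an inhibitor of the acetyltransferases CBP and p300, or with DMSO alone, the vehicle control. Treatment lasted 2 h in all, and both groups received 100 µM 4-thiouridine (4sU) for the last 60 min, with 3 libraries per group. SLAM-seq reads incorporated 4sU as T > C conversions, so that T > C reads stand for RNA made during the labelling and the remaining reads mostly for RNA made before it. All libraries came from 1 cell line, and nothing in the labels says whether the replicates were separate cultures, so that p-values may measure only technical spread.

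RNA polymerase I works in the nucleolus, where UBTF, an HMG box protein, keeps the ribosomal DNA open and RRN3 joins the polymerase to the promoter-bound selectivity factor. The enzyme is built from a catalytic core, a pair of small subunits that it shares with RNA polymerase III, a handful shared with all nuclear RNA polymerases, and subunits of its own that help in initiation, elongation and RNA cleavage. Its output sets the supply of ribosomes, for which leukaemia cells have a high demand. The messenger RNAs of these genes are themselves made by RNA polymerase II, and it is their amount that was measured, not the activity of RNA polymerase I.

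The libraries held 7252597 to 10225448 reads on 3′ UTRs, of which 477824 to 833410 were T > C reads. T > C reads made up 8.79% ± 0.06 (SD, n = 3) of the reads in DMSO and 6.48% ± 0.20 in C646, and each T > C read carried 2.00 to 2.11 conversions on average in DMSO and 1.87 to 1.91 in C646. The part of these library-wide differences in the results that follow was not tested. The 9 markers of MOLM-13 that were looked up (CD33, FLT3, SPI1, MPO, LYZ, CEBPA, HOXA9, MEIS1 and PTPRC) each exceeded 10 CPM (counts scaled to the library total) in every library, and none of 10 markers of other cell types did. The summed level of those 10 was 6.60 to 11.7 CPM in DMSO and 12.3 to 15.8 CPM in C646, with CD3E, HBB and COL1A2 among those at 0.

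New RNA of most RNA polymerase I genes was lower after C646. Of the 10 genes, 8 had enough T > C reads to be tested, and 6 fell, namely POLR1G, POLR1C, POLR1B, POLR1A, POLR1E and UBTF, while POLR1F and POLR1D did not pass the test. Over all 7722 tested genes 33.0% were called lower and 2.97% higher (quasi-likelihood test of edgeR; called where the Benjamini-Hochberg adjusted p was 0.01 or less and the change was 1 or more on the log2 scale). The median log2 fold change of the 8 tested members was −2.51, against −0.83 over all tested genes. No member rose in new RNA, by edgeR or by DESeq2, and at an unadjusted p under 0.05 the count of members higher was 0 and of members lower 8, where 6.02% of all tested genes were higher and 54.8% lower. T > C reads were scaled to all 3′ UTR reads of their library, without a spike-in. The fold changes are thus relative to total mRNA, whose amount per cell was not measured. As the RNA came from many cells together, less new RNA per cell and fewer cells making a transcript cannot be told apart. When T > C reads were instead scaled by TMM on themselves, which balances them between libraries (called TMM of new reads from here on), the median over all genes moved by 0.83 and came close to 0, 613 genes were lower and 699 higher in place of 2548 and 229, and 3 members (POLR1G, POLR1C and POLR1B) remained called lower, where 7.94% of all tested genes were lower and 9.05% higher.

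**Figure D1:**
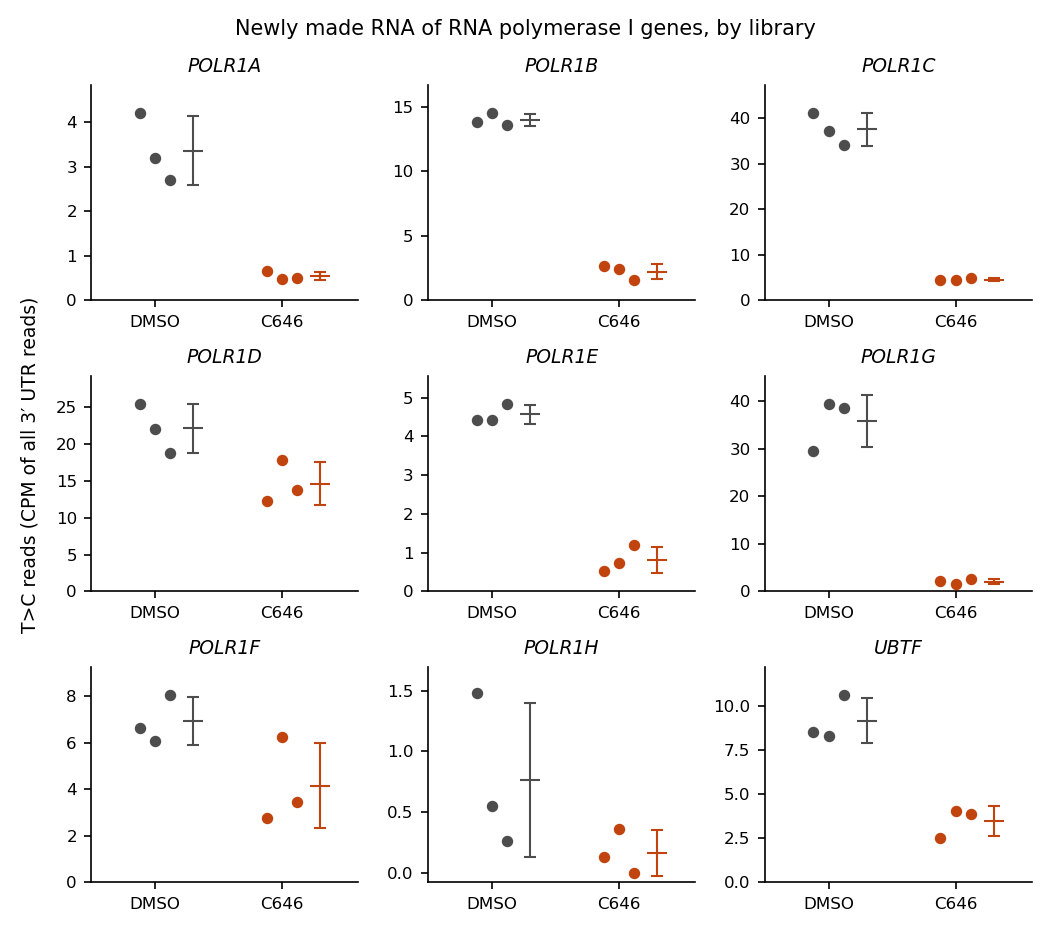
T > C reads of 9 RNA polymerase I genes in CPM of all 3′ UTR reads, 1 panel per gene with its own linear axis. Points are the 3 libraries of each group, and the bar beside them is the mean ± SD. In POLR1G the C646 libraries lie between 1.47 and 2.58 CPM and the DMSO libraries between 29.5 and 39.5, whereas the groups of POLR1F and of POLR1H overlap.

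Short windows around sequence motifs in the promoters of 4 members are printed here, those of POLR1G, POLR1C and POLR1B because these 3 had the largest falls in new RNA and that of POLR1H for the CRE core that no other member window holds. They come from RefSeq (GRCh38.p14), read from 250 bases before to 50 bases after each transcription start, and such 300-base windows were at hand for 9 of the 10 members, all but POLR1E. Both strands were searched for 5 motifs, and the capitals mark the match, with sequences written 5′ to 3′ along the gene. POLR1G, the member with the largest fall, has the only E-box (CACGTG, a site bound by MYC and its relatives) among the members, beginning 12 bases before the start at chr19:45406620-45406649. POLR1C and POLR1B hold the ETS motif CCGGAAG, read on the opposite strand as CTTCCGG, in the windows at chr6:43516950-43516979 and chr2:112542411-112542440. POLR1H has the only CRE core (TGACGT), at chr6:30061178-30061207.
POLR1G, E-box: cccctttggatcCACGTGgtctgcaacctg
POLR1C, ETS: ggacaaaagcaaCTTCCGGaagctggggac
POLR1B, ETS: ctgcggccactaCTTCCGGcgtgtaccgag
POLR1H, CRE core: cgcaattaattaTGACGTcacagccaatcg
In POLR1C the match shown overlaps a second one on the other strand that begins 3 bases further on, and in POLR1H the core overlaps its own reverse complement. The E-box was found in 1 of the 9 members, in 7.43% of all 27305 promoter windows and in 11.2% of those of genes tested in new RNA. The CRE core was found in 1 of the 9 members, and in 8.32% and 13.0% of these windows. The ETS motif stood in 3 of the 9 members, with RRN3 as the third, in 10.7% of all windows and in 23.0% of those of tested genes. The GC box GGGCGG occurred in 4 members (POLR1B, POLR1C, POLR1D and UBTF) in 44.6% of all windows and in 71.0% of those of tested genes. GCATGCG, part of the NRF1 site, occurred in 0 of 9 members in 4.13% of all windows and in 7.55% of those of tested genes. These are matches of letters and say nothing of whether a factor was bound.

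The catalytic core is formed by POLR1A, the largest subunit, and POLR1B, the second largest, which hold the active centre between them. POLR1A (3′ UTR chr2:86026328-86027422, minus strand, GRCh38) had 40, 23 and 20 T > C reads in DMSO (replicates 1, 2 and 3, the order used throughout) and 5, 4 and 5 in C646. POLR1B (chr2:112575730-112577152, plus strand) had 131, 105 and 101 in DMSO and 20, 20 and 16 in C646. For both genes each C646 library lay far below each DMSO library. On the scale of CPM, POLR1A went from 3.37 ± 0.78 (SD, n = 3, as for all values that follow) to 0.549 ± 0.097, a log2 fold change of −2.60 (SE 0.54, adjusted p = 0.000215). POLR1B went from 14.0 ± 0.5 to 2.23 ± 0.56 CPM, a log2 fold change of −2.66 (SE 0.29, adjusted p = 1.12e-08), or −1.83 under TMM of new reads. The 2 core subunits thus fell to 16.5% and 15.8% of their DMSO levels, and the step between them (0.06 on the log2 scale) was under its combined SE of 0.62. Under TMM of new reads POLR1A had a log2 fold change of −1.78 with an adjusted p of 0.0139, and so missed the call by its p-value.

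POLR1C and POLR1D are the subunits shared with RNA polymerase III, where they form the assembly platform for the larger chains, and mutations in either cause Treacher Collins syndrome. Their new RNA differed widely in response. POLR1C (chr6:43521301-43521526, plus strand, 97.4% of its reads) had 391, 269 and 253 T > C reads in DMSO and 34, 36 and 49 in C646. These are 37.5 ± 3.6 and 4.59 ± 0.24 CPM, a log2 fold change of −3.03 (SE 0.21, adjusted p = 1.23e-12), or −2.19 under TMM of new reads. POLR1D had 242, 159 and 140 T > C reads in DMSO and 93, 146 and 139 in C646. In CPM its groups did not overlap, with 18.9 to 25.5 in DMSO against 12.3 to 17.9 in C646, but the log2 fold change of −0.60 (SE 0.21, adjusted p = 0.0154) did not reach the threshold, and under TMM of new reads it was 0.24.

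POLR1D is read at 2 places on chromosome 13, chr13:27623251-27623453 and chr13:27665954-27667422, both on the plus strand and both in UTRs of the gene, which belong to transcripts with different last exons. The first place held 119, 89 and 78 T > C reads in DMSO and 69, 76 and 57 in C646, and the second held 123, 70 and 62 in DMSO and 24, 70 and 82 in C646. C646 replicate 1 stood apart, with 74.2% of its POLR1D T > C reads at the first place, against 52.1% and 41.0% in C646 replicates 2 and 3. Log2 fold changes in new RNA were −0.57 (SE 0.25, adjusted p = 0.0558) and −0.63 (SE 0.30, adjusted p = 0.0714), and neither place was called, where 32.4% of all entries tested were lower. The first place took 53.6% ± 3.9 of the T > C reads of POLR1D in DMSO and 55.8% ± 16.9 in C646 (two-sided exact permutation test, p = 0.9, where 0.1 is the smallest p that 3 libraries against 3 allow), and 47.5% ± 3.8 and 44.3% ± 4.1 of all its reads (p = 0.4).

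The subunits that only RNA polymerase I has comprise POLR1E and POLR1G, which form a heterodimer on the enzyme that helps initiation and elongation, POLR1F in the stalk, where RRN3 docks, and POLR1H, which takes part in RNA cleavage. POLR1G (chr19:45409502-45410766, plus strand) had 280, 285 and 287 T > C reads in DMSO and 16, 12 and 26 in C646. Its level went from 35.9 ± 5.5 to 2.06 ± 0.56 CPM, a log2 fold change of −4.10 (SE 0.25, adjusted p = 7.72e-14), or 17.1-fold lower. Under TMM of new reads its log2 fold change was −3.27, and with conversions counted in place of reads −4.84. The value of −4.10 placed it 37th from the lowest of the 7722 tested genes. The partner in the heterodimer, POLR1E (chr9:37503203-37503697, plus strand), had 42, 32 and 36 T > C reads in DMSO and 4, 6 and 12 in C646. It went from 4.57 ± 0.24 to 0.818 ± 0.338 CPM, a log2 fold change of −2.43 (SE 0.47, adjusted p = 9.99e-05), and under TMM of new reads one of −1.61, which missed the call by its p-value (adjusted p = 0.0104). The 3′ UTR of POLR1G overlaps ERCC1 on the opposite strand, and 3.18% of its reads mapped to more than 1 place, the highest share among the members. The libraries were made with a kit that keeps the strand.

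POLR1F (chr7:19695462-19698315, minus strand) had 63, 44 and 60 T > C reads in DMSO and 21, 51 and 35 in C646. Its groups overlapped, since C646 replicate 2 at 6.25 CPM stood above DMSO replicate 2 at 6.10. The log2 fold change was −0.73 (SE 0.33, adjusted p = 0.0555), close to the median of all genes, and 0.10 under TMM of new reads. POLR1H was too low to be tested in new RNA, with 14, 4 and 2 T > C reads in DMSO and 1, 3 and 0 in C646, or 0.766 ± 0.630 and 0.167 ± 0.186 CPM. Of its reads, 99.2% were counted on an alternative contig of chromosome 6 and 0 on chromosome 6 itself (chr6:30064698-30064909), and the part of this choice of contig in its low counts was not tested.

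Of the initiation factors, UBTF (main 3′ UTR chr17:44205033-44207367, minus strand) had 81, 60 and 79 T > C reads in DMSO and 19, 33 and 39 in C646. It went from 9.16 ± 1.28 to 3.48 ± 0.84 CPM, a log2 fold change of −1.38 (SE 0.30, adjusted p = 0.000307), and the groups did not overlap. The annotation lists 21 entries for UBTF, most of them coding exons, and the main 3′ UTR held 84.2% of the reads. By itself this 3′ UTR fell by 1.27 on the log2 scale (SE 0.31, adjusted p = 0.00110). Under TMM of new reads UBTF had a log2 fold change of −0.56 (adjusted p = 0.158) and was not called. RRN3 had too few reads to be tested, with 9 reads and 0 T > C reads over the 6 libraries. Its entry on chromosome 16 is given on the plus strand while the gene lies on the minus strand in GENCODE release 44, and held 0 reads. The 9 reads fell on an entry of an alternative contig, whose strand was not compared with the annotation. RRN3 was therefore taken as not measured, and these counts do not give its level.

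In order of the fold change in new RNA, POLR1G came first, followed by POLR1C, POLR1B, POLR1A, POLR1E, UBTF, POLR1F and POLR1D. The step from POLR1G to POLR1C was 1.07 on the log2 scale, 3.25 times its combined SE. Every other step between neighbours lay under 2 combined SE, the next largest being 1.04 from POLR1E to UBTF, at 1.85. In 7 of the 8 tested members each C646 library was below each DMSO library, which held for 55.8% of all tested genes.

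Total RNA, counted over all reads, showed smaller differences, with values on both sides of zero. POLR1C and POLR1G were called lower and no member was called higher, where 1.88% of 10851 tested genes were lower and 5.89% higher. DESeq2 gave the same 2 and 0, where it called 222 of all tested genes lower and 655 higher. At an unadjusted p under 0.05 the edgeR test had 5 of 9 members lower and 2 higher, where 20.5% of all tested genes were lower and 22.1% higher. POLR1C had 153, 155 and 131 CPM in DMSO and 59.6, 55.4 and 44.2 in C646, a log2 fold change of −1.46 (SE 0.15, adjusted p = 1.46e-05). POLR1G had 158, 186 and 172 CPM in DMSO and 81.6, 59.4 and 44.4 in C646, a log2 fold change of −1.48 (SE 0.19, adjusted p = 8.79e-05). The amounts of these 2 transcripts thus stood at 36.3% and 35.9% of the DMSO level after 2 h. They ranked 64th and 60th from the lowest of all tested genes, and no other member had an absolute log2 fold change of 1 or more.

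**Figure D2:**
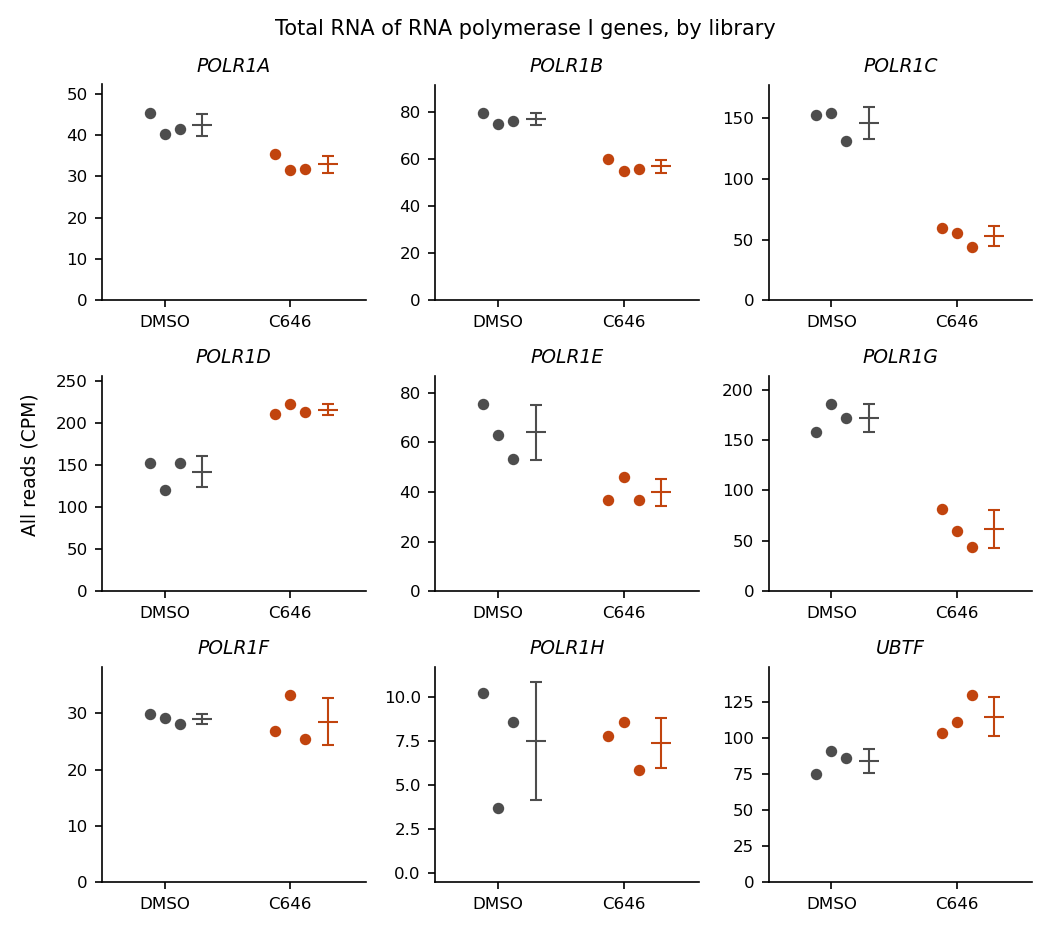
All reads of the same 9 genes in CPM, drawn as for new RNA, with the mean ± SD beside the 3 libraries of each group. C646 libraries lie below all DMSO libraries in POLR1A, POLR1B, POLR1C, POLR1E and POLR1G, and above them in POLR1D and UBTF. In POLR1F 2 C646 libraries lie below the DMSO libraries and 1 above, and in POLR1H the groups overlap.

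The core subunits and POLR1E were lower in total RNA in every C646 library but by less than the threshold. POLR1A had 42.4 ± 2.7 CPM in DMSO and 32.9 ± 2.1 in C646, a log2 fold change of −0.37 (SE 0.15, adjusted p = 0.0754). POLR1B had 77.1 ± 2.5 and 57.1 ± 2.8 CPM (log2 fold change −0.44, SE 0.13, adjusted p = 0.0225), and POLR1E had 64.0 ± 11.1 and 39.9 ± 5.5 CPM (−0.69, SE 0.17, adjusted p = 0.00704). POLR1D and UBTF stood on the other side of zero. POLR1D had 152, 121 and 153 CPM in DMSO and 211, 223 and 213 in C646, a log2 fold change of 0.60 (SE 0.14, adjusted p = 0.00436). UBTF had 75.5, 91.4 and 86.3 CPM in DMSO and 104, 111 and 130 in C646, a log2 fold change of 0.45 (SE 0.14, adjusted p = 0.0251). At an adjusted p of at most 0.01 without a minimum fold, POLR1C, POLR1G and POLR1E counted as lower, where 6.28% of all genes did, and POLR1D as higher, where 9.81% did. At an adjusted p of at most 0.05 POLR1B joined the lower and UBTF the higher, and the shares of all genes were 14.6% and 16.8%. For POLR1D and UBTF all C646 libraries were above all DMSO libraries, as in 24.5% of all tested genes, and the opposite order in 5 members was found in 23.1%. POLR1F (29.1 ± 0.9 and 28.6 ± 4.2 CPM) and POLR1H (7.53 ± 3.38 and 7.41 ± 1.40 CPM) had log2 fold changes of −0.03 (SE 0.17) and −0.04 (SE 0.33), and neither had all C646 libraries on 1 side of the DMSO libraries.

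At the 2 places of POLR1D the total RNA log2 fold changes were 0.50 (SE 0.14, adjusted p = 0.0189) and 0.68 (SE 0.15, adjusted p = 0.00538), so that both stood above zero. For UBTF the main 3′ UTR had a log2 fold change of 0.61 (SE 0.15, adjusted p = 0.00749) in total RNA, and the reads outside it, most of them on entries annotated as coding sequence alone, made up 15.5% to 27.0% of the UBTF reads in DMSO and 10.1% to 17.3% in C646.

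Reads without T > C conversions were set against the T > C reads to see where the total had moved, an analysis added after seeing the data. Since C646 was present for 1 h before the label, reads without conversions include RNA made under treatment as well as older RNA. New RNA that shows no conversion is also among them, and the parts of synthesis and decay were not tested. For POLR1G the group means of T > C reads dropped by 33.8 CPM and those of reads without conversions dropped by 76.3 CPM. For POLR1C they dropped by 32.9 and dropped by 60.1 CPM. For both genes the larger part of the loss was thus in reads without conversions, whose log2 fold changes were −1.19 in POLR1G (SE 0.19, adjusted p = 0.000479) and −1.17 in POLR1C (SE 0.16, adjusted p = 0.000145). Among all 10568 genes tested this way 0.88% were lower and 8.01% higher, with a median of 0.11. POLR1A and POLR1E had the same balance as POLR1G and POLR1C, though neither was called in reads without conversions. The differences were −2.82 CPM in T > C reads and −6.71 CPM in other reads for POLR1A, and −3.75 and −20.4 CPM for POLR1E. POLR1B had the opposite balance, as its T > C reads dropped by 11.8 CPM and its other reads dropped by 8.30 CPM. In POLR1D the difference was −7.47 CPM in T > C reads and 81.0 CPM in reads without conversions (log2 fold change 0.75, SE 0.14, adjusted p = 0.00162). In UBTF it was −5.69 CPM and 36.5 CPM (log2 fold change of the latter 0.57, SE 0.15, adjusted p = 0.00935).

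**Figure D3:**
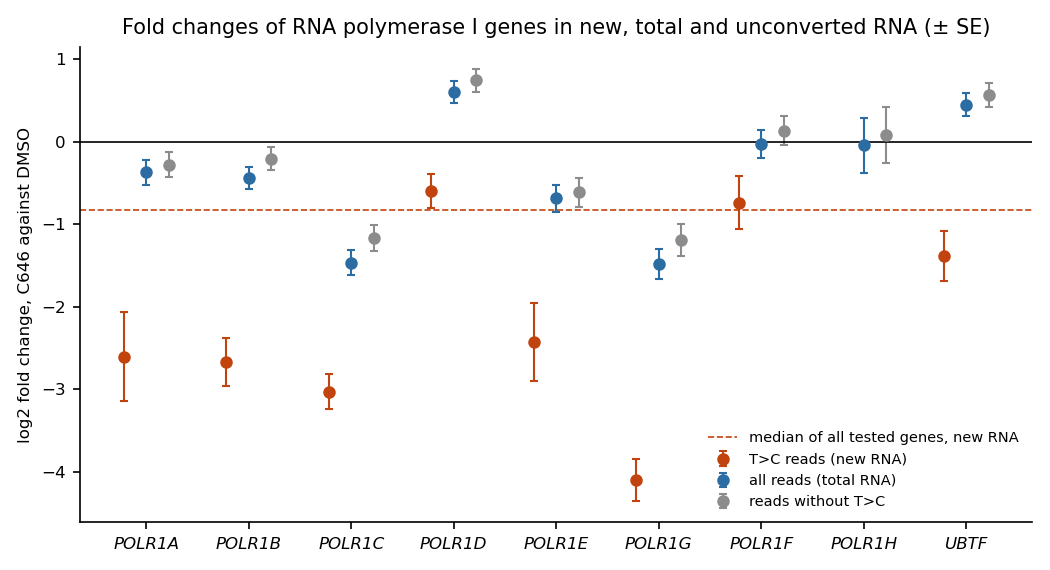
Log2 fold changes (C646 against DMSO) with their SE for T > C reads, all reads and reads without T > C conversions of 9 members, where POLR1H has no value for T > C reads. The dashed line is the median of all tested genes in new RNA, −0.83, and 6 members lie below it in new RNA, while only POLR1C and POLR1G lie below −1 in the other 2 measures.

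The share of T > C reads among the reads of a gene needs no scaling between libraries. In DMSO it ranged from 7.32% ± 1.62 in POLR1E and 7.89% ± 1.39 in POLR1A to 23.9% ± 4.2 in POLR1F and 25.7% ± 1.5 in POLR1C, against a median of 13.3% over tested genes. POLR1G had 18.7%, 21.2% and 22.5% in DMSO and 2.59%, 2.47% and 5.80% in C646. POLR1C had 24.1% to 27.0% in DMSO and 7.54%, 7.96% and 11.0% in C646. In all 8 tested members the C646 libraries lay below the DMSO libraries, as they did in 64.5% of all tested genes. In the test of the odds, 7 of 8 members were called lower, where 38.3% of all genes were lower and 0.79% higher, and POLR1F was not called. The changes in log2 odds were −2.84 for POLR1G (SE 0.29), −2.46 for POLR1B (SE 0.30), −2.32 for POLR1A (SE 0.44), −1.97 for UBTF (SE 0.27), −1.84 for POLR1C (SE 0.25), −1.81 for POLR1E (SE 0.41), −1.36 for POLR1D (SE 0.21, adjusted p = 1.33e-05) and −0.91 for POLR1F (SE 0.37, adjusted p = 0.0340). POLR1C stood between UBTF and POLR1E here, and its reads without conversions were lower too. In POLR1D and UBTF the reads without conversions were higher (log2 fold changes 0.75 and 0.57), which also lowers the odds. The T > C reads of POLR1D by themselves were not called.

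**Figure D4:**
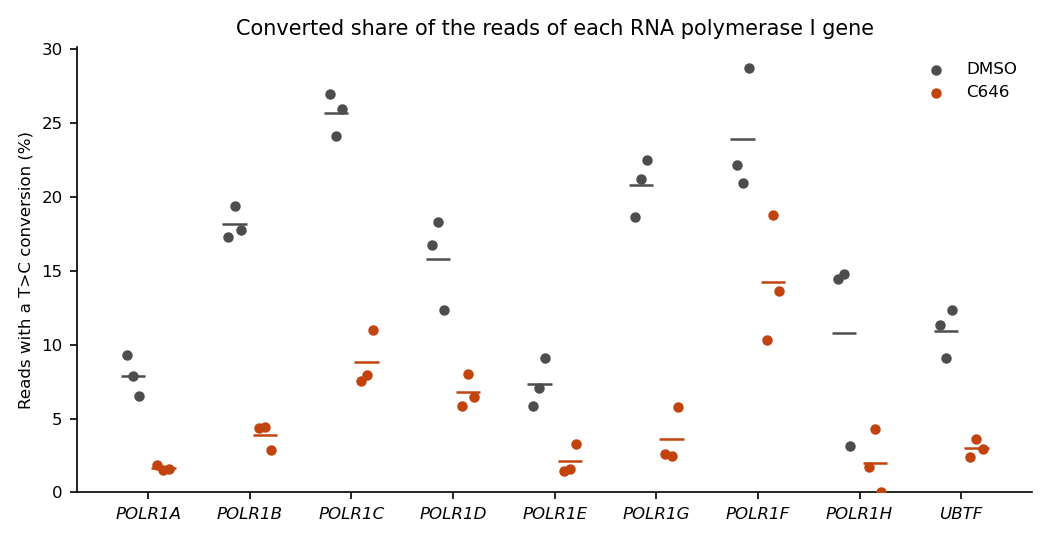
Percentage of the reads of each gene that carry a T > C conversion, with points for the 3 libraries of each group and a line at their mean. The C646 points lie below the DMSO points in all genes except POLR1H, where DMSO replicate 3 at 3.13% is below C646 replicate 2 at 4.29%.

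The number of conversions in a T > C read did not move alike in the members. In DMSO the members had 1.70 (POLR1A) to 2.53 (POLR1B) conversions per T > C read among those tested, around a median of 2.11 over tested genes. In C646 POLR1G had 1.17 over 54 T > C reads and POLR1E 1.14 over 22, against a median of 1.82, while POLR1B had 2.71 over 56. The deposited T > C reads include reads with a single conversion, and no library without 4sU was analysed here, so that the level of T > C reads from sequencing errors is not known.

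The partners of the enzyme were read from 6 lists written by function, and their counts in new RNA stand against the 33.0% lower and 2.97% higher of all tested genes. The 5 subunits shared by all nuclear RNA polymerases were all tested, and POLR2L (−2.44), POLR2F (−1.97) and POLR2E (−1.13) fell in new RNA, whereas POLR2K (−0.61, adjusted p = 0.0101) and POLR2H (−0.04, adjusted p = 0.909) did not pass the test. Under TMM of new reads POLR2L alone of the 5 was called. POLR2H had 10.5 ± 1.3 CPM in DMSO and 10.1 ± 1.3 in C646. In the promoter selectivity factor, which recruits the polymerase through RRN3, TAF1C fell by 1.54 (SE 0.46, adjusted p = 0.00600), TAF1D had −1.04 (adjusted p = 0.0105) and TBP −0.74 (adjusted p = 0.146), and TAF1A and TAF1B were too low to be tested. The call of TAF1C did not hold under TMM of new reads (−0.69), under DESeq2 (−1.53, adjusted p = 0.0248), with conversions counted in place of reads, with totals of all filtered reads, or without C646 replicate 3 or any 1 of the DMSO replicates. TAF1D was called as well without C646 replicate 1 and with the replicate block. The same held in edgeR with size factors of DESeq2 from all reads, with plain totals of all reads and without a filter.

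Among 12 genes of ribosomal DNA chromatin, elongation and termination, 11 were tested and 5 fell, namely MYBBP1A (−2.70), NOLC1 (−2.35), the helicase DDX21 (−2.01), the deacetylase SIRT7 (−1.64) and nucleolin, NCL (−1.36, named after its value was seen to complete the 5). BAZ2A, part of a complex that silences ribosomal DNA, was highest with 0.07 (SE 0.31). DDX21 had 132 ± 21 CPM in DMSO and 32.5 ± 2.3 in C646. Of 6 genes of the UTP group that is linked to ribosomal DNA transcription, 4 were tested and 3 fell, HEATR1 (−2.31), WDR43 (−1.93) and UTP15 (−1.71), with NOL11 highest at −0.59. The median log2 fold changes of these lists were −1.36 and −1.82. Under TMM of new reads 3 and 2 of their genes were called lower, where 7.94% of all tested genes were.

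The subunits of the other polymerases were read in the same way. Of 9 tested subunits that only RNA polymerase III has, 6 fell (median −1.42), with POLR3D (−1.95) and POLR3K (−1.90) as examples rather than as the lowest, and POLR3GL was highest at −0.67. Under TMM of new reads 2 of these 9 were called lower, where 7.94% of all tested genes were. Of 6 tested subunits of RNA polymerase II alone, 4 fell (median −1.15), from POLR2I at −1.57 over POLR2G at −1.31, POLR2D at −1.26 and POLR2C at −1.04 to POLR2B, the highest, at 0.23. This count rested on single libraries, since 2 of the 4 (POLR2D and POLR2G) were called without C646 replicate 1 or C646 replicate 2 and 1 (POLR2D) without DMSO replicate 2, and none under TMM of new reads. Over all 6 lists 22 of 38 tested genes were lower and 0 higher by edgeR, and 18 and 0 by DESeq2, with 0 higher also at an unadjusted p under 0.05. DESeq2 called 2249 of all 7722 tested genes lower and 216 higher. Under TMM of new reads 8 of the 38 were lower, where 7.94% of all tested genes were, and POLR2B was higher (1.06). In total RNA none of 42 tested partner genes was lower by edgeR or DESeq2, where 1.88% of all tested genes were lower by edgeR, and WDR75 (1.74, SE 0.31) and POLR2B (1.58, SE 0.28) were higher, where 5.89% were. At an unadjusted p under 0.05 the edgeR test had 16 of the 42 lower and 6 higher, where 20.5% and 22.1% of all tested genes were. POLR2L, at −0.98 (SE 0.18), lay just short of the threshold.

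**Figure D5:**
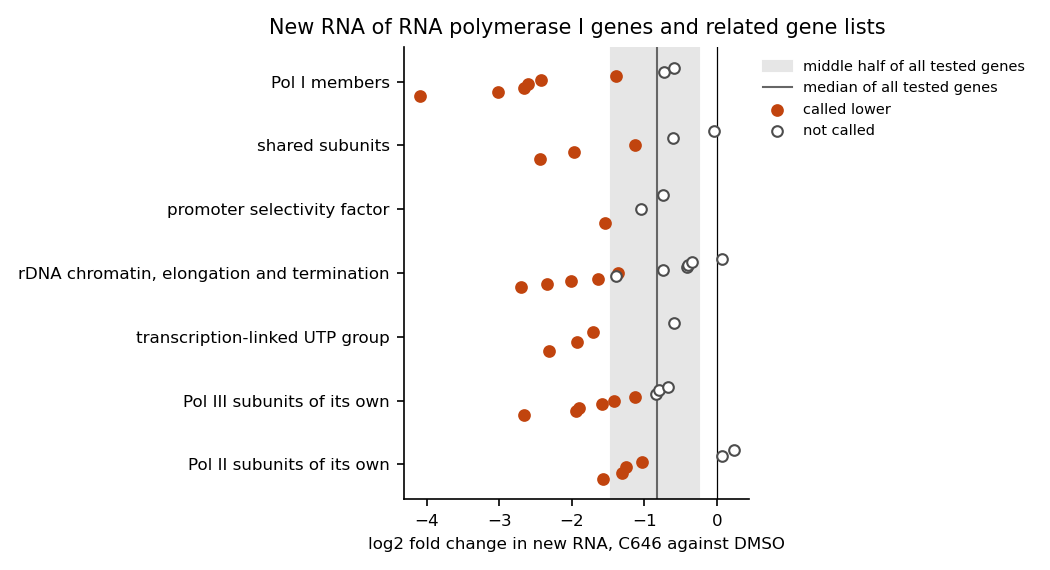
Log2 fold changes in new RNA of the tested RNA polymerase I members and of 6 partner lists, 1 point per gene, filled where called lower. The grey band holds the middle of all tested genes, from −1.46 to −0.25 with the median line at −0.83, and 5 members (POLR1G, POLR1C, POLR1B, POLR1A and POLR1E) lie to the left of it.

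The genes whose new RNA followed the median course of the tested members most closely over the 6 libraries were STK35, CBX6, SATB1, GFI1 and AMD1, at distances of 0.16 to 0.27 (the Euclidean distance between log2 profiles of CPM plus 0.5, set to a mean of 0 in DMSO), out of 2838 genes that averaged 50 or more T > C reads per library. The added 0.5 draws low genes toward zero, so that the median course of the members stood at −1.99 to −1.76 in the C646 libraries, above the median fitted log2 fold change of −2.51. The fitted log2 fold changes of the 5 genes in new RNA ran from −1.87 (AMD1) to −2.03 (SATB1).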

How the data were processed

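Base calls came from CASAVA 1.9. The authors mapped the libraries to GRCh38 using SLAM-Dunk 0.4.1 and deposited, per library, counts of reads, T > C reads, conversions and multimapped reads on 58136 3′ UTR entries, the coverage on T positions as a signal, and CPM. The deposited CPM values were used only to work out the filtered reads. The table of C646 replicate 3 lists 0 T bases throughout. The deposited conversion rate, a fraction of covered T positions that the authors' software wrote, was not tested. Counts were summed over the entries of each gene (Entrez identifiers, 25310 of 25420 matched to symbols) and tested with edgeR 4.0.16 in R 4.3.3 (filterByExpr, glmQLFTest) on all genes, without a covariate, with library sizes from TMM on all reads. The SE is the absolute log2 fold change over the square root of F. The odds model had a library factor. In simulated data, the new RNA test recovered 55.4% of genes changed by 1.5 and 100% of those changed by 3 on the log2 scale. Counting error alone understates the spread, since the chi-square between libraries of 1 group was 7.87 to 27.7 for each degree of freedom and PCR copies are not independent molecules. The members and lists were chosen with earlier results of these data known. Named are all members, all genes of the 2 lists of shared subunits and of the promoter selectivity factor, of the other lists the lowest, the highest and up to 3 more called genes with the largest change, and the 5 nearest genes. Single values of 2 genes in these lists, 1 of which the rule names, are not reported here. The study's methods required at least 2 conversions per T > C read, whereas 3288 entry values in the tables used here rest on 1 T > C read with 1 conversion. Alternatives were other scalings, filters, counting rules and call rules, DESeq2 1.42.0, a replicate block and leaving out each library. Python 3.11.15, pandas 2.3.3, numpy 2.4.6 and matplotlib 3.10.9 were used for the summaries.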

Additional observations from a re-analysis of the deposited data

How the results depend on the processing

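The 6 members called in new RNA became 3 under TMM of new reads (T > C reads scaled by TMM on themselves) and under DESeq2 when its size factors came from T > C reads, which also took the partner genes called from 22 to 8 and 7. Over all 7722 tested genes 613 and 451 were lower under these 2 scalings. The 3′ UTR entries called went from 6 to 3 under TMM of new reads. Under these 2 scalings POLR1D turned to 0.24 and 0.21 and POLR1F to 0.10 and 0.075, in that order. Keeping genes that averaged 50 or more T > C reads left 11 partner genes, 4 members in new RNA and 5 in the odds, without POLR1A and POLR1E, and glmTreat against a log2 fold change of 1 left 12 and lost UBTF (adjusted p = 0.123). Over all genes, 1038 of 2843 were lower in new RNA under this minimum and 834 of 7722 under glmTreat. Without a minimum fold, at an adjusted p of at most 0.05, total RNA had 4 members lower and 2 higher in place of 2 and 0, where 14.6% and 16.8% of all genes were. In total RNA, POLR1F and POLR1H lay near zero and turned to 0.18 and 0.16 with totals of all filtered reads and to 0.14 and 0.083 in reads without T > C conversions, and POLR1H to 0.027 with the replicate block. Without 1 library in turn, POLR1F ranged from −0.15 to 0.051 and POLR1H from −0.36 to 0.25. The causes were not tested, apart from the smaller number of genes under the minimum.

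Totals of all filtered reads moved the median of all genes by 0.21 in both new and total RNA, and counting conversions in place of T > C reads moved it by −0.19. Leaving out 1 library gave 6 to 6 members lower in new RNA, 15 to 21 partner genes, 2 to 2 members lower and 0 to 0 higher in total RNA, 7 to 7 in the odds and 5 to 6 entries, the 5 without DMSO replicate 3, where the main entry of UBTF was lost. Same-numbered libraries did not deviate together in every pair (r of 0.03 to 0.07 in new RNA and −0.0014 to 0.23 in total RNA), so the numbers were not taken to pair the samples, although 6 of 6 libraries in new RNA and 3 of 6 in total RNA correlated best with their own number, a hint from the data and not from the design. With the replicate block there were 6 members lower in new RNA, 23 partner genes, 2 members lower and 0 higher in total RNA, 7 in the odds and 6 entries. POLR1H, with 20 T > C reads in DMSO, was not tested in new RNA.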
